A study of Mus musculus with 2 samples.

Results

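The endocytic receptor genes of the visceral endoderm and the genes of fetal serum proteins were examined in whole mouse embryos at embryonic day 10.5. The set was named gene by gene and held 4 endocytic genes (Cubn, Lrp2, Amn and Dab2) and 6 serum protein genes (Afp, Alb, Ttr, Trf, Rbp4 and Fgb). All 10 were found among 34624 measured loci, a locus being 1 gene or several overlapping genes whose reads were joined. The genes were chosen by name with their RPKM values in these 2 libraries known, so their levels and replicate differences are given as a description, with no test. The study sequenced total RNA of 2 untreated replicates of the cross CBA/Ca×C57Bl/10, taken 10.5 days after conception counted from the plug. There was no other group, so nothing was compared between conditions, and the spread between the 2 replicates is the error of every level. From the labels it is not known how many embryos went into each replicate, or whether the yolk sac was kept.

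The visceral endoderm is the absorptive epithelium that covers the early embryo and later lines the yolk sac. Its apical surface takes up maternal protein, vitamin and lipid carriers by endocytosis through the large receptors megalin and cubilin, delivers them to lysosomes, and its cells secrete serum proteins before and while the liver bud takes over that work. At midgestation, transcripts of serum proteins can therefore come from yolk sac endoderm, from the young liver or from both, and megalin is also made by the neural tube and the nephric duct. In bulk RNA, fewer cells of a type and less RNA per cell cannot be told apart.

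Albumin and alpha-fetoprotein are related genes that lie side by side on chromosome 5, and Fgb encodes 1 of the chains of fibrinogen. The promoter windows of these 3 genes are shown because each holds the core of the site for the HNF1 factors, GTTAAT on either strand, which stands in capitals. The sequences are RefSeq's on build GRCm38.p6, from 250 bases before to 50 bases after the annotated start, 5′ to 3′ on the strand of the gene. The Afp window is chr5:90490464-90490763 (plus strand), the Alb window chr5:90460620-90460919 (plus strand) and the Fgb window chr3:83049814-83050113 (minus strand).
Afp promoter: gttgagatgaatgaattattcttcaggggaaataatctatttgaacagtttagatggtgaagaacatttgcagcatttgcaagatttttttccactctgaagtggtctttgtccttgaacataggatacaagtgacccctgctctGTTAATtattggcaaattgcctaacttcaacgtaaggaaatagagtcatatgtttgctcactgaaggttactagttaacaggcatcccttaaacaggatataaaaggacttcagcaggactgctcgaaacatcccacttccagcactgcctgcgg
Alb promoter: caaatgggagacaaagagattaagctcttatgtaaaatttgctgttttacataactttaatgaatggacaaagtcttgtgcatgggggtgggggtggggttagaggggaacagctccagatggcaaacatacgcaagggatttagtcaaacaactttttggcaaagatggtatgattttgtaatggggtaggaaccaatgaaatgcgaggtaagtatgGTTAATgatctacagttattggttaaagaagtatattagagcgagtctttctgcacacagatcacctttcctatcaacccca
Fgb promoter: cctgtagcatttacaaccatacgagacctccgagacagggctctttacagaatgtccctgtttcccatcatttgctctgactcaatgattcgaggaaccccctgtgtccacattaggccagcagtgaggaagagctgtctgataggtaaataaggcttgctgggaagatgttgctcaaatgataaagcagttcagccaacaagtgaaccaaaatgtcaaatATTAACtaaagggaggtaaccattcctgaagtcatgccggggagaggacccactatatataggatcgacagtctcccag
The core began at position -105 from the start in Afp, at -32 in Alb and, on the opposite strand, at -29 in Fgb. It occurred in 7.10% of 32851 promoter windows. Of the members, 8 had windows in the table, and Ttr and Trf had none. Further windows searched were those of Cubn, Lrp2, Amn, Rbp4 and Dab2, and of these a Dab2 window held the core as well. Other motifs searched on both strands were the HNF4 site CAAAGTCCA (0.475% of windows), the FOXA site TGTTTAC (3.65%), the GATA site AGATAA (11.2%) and the TATA box TATAAA (13.6%). Matches in members were a TATA box in Afp and Rbp4, a FOXA site in Rbp4 and a GATA site in Dab2, and no window of a member held the HNF4 site. A match describes letters in a window and shows no binding.

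The libraries differed in depth, with 18318181 counts summed over loci in replicate 1 and 117522171 in replicate 2. The 10 genes took 17862 reads (0.0975%) in replicate 1 and 38267 reads (0.0326%) in replicate 2. Levels are given as RPKM, reads scaled to transcript length and to the size of the library, in replicate 1 and then in replicate 2. Ratios between replicates are log2 ratios of RPKM + 1, replicate 2 over replicate 1, from which the median of the 18335 loci with a mean of 1 RPKM or more (-0.38) was subtracted. A negative ratio therefore means that a gene was higher in replicate 1 than the shift of the loci as a whole. The median size of this centred ratio over those loci was 0.29. Of the 10 genes, 9 reached 1 RPKM in both replicates, a level reached by 49.4% of all loci, and Amn did not.

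Megalin, cubilin and amnionless, the receptors of the uptake route, were all higher in replicate 1, and cubilin differed most. Cubn (chromosome 2) encodes cubilin, a peripheral receptor for vitamin B12 with its carrier and for albumin. It stood at 37.4 RPKM in replicate 1 (2975 reads) and 1.98 RPKM in replicate 2 (773 reads). The 95% Poisson limits on the reads put these levels at 36.1 to 38.8 and 1.85 to 2.13 RPKM, so counting error was far smaller than the difference. Relative to the library sizes implied by the RPKM values, Cubn reads were 21.9-fold higher in replicate 1 (exact binomial 95% limits 20.2 to 23.7, counting error only). Its centred log2 ratio was -3.30, the 6th lowest of 18335 loci, and on read counts it was -3.99, the 51st lowest. The locus is joined with Gm13270, and the reads of the 2 genes cannot be separated.

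Amn (chromosome 12) encodes amnionless, the membrane partner that anchors cubilin and carries it to the cell surface. It had 1.16 RPKM in replicate 1 from 22 reads and 0.0925 RPKM in replicate 2 from 10 reads, with Poisson limits of 0.724 to 1.75 and 0.0443 to 0.170 RPKM. The limits do not overlap, and the reads were 12.5-fold higher in replicate 1, with limits of 5.68 to 29.6. The log2(RPKM + 1) scale gives a centred ratio of only -0.60 for such a low gene, against -3.15 on read counts. The Cubn locus, joined with Gm13270, was 32.3 times as high as Amn per length in replicate 1 and 21.4 times in replicate 2. The ratio in replicate 2 rests on 10 reads of Amn. The levels measured for these partners of 1 receptor complex were thus unequal in both replicates.

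Lrp2 (chromosome 2) encodes megalin, the receptor of the LDL receptor family with which cubilin is taken in. It had 16.05 RPKM from 3127 reads in replicate 1 and 5.39 RPKM from 5950 reads in replicate 2. Its reads were 2.99-fold higher in replicate 1 (limits 2.86 to 3.12), and its centred ratio was -1.03. The order of the 2 receptors thus turned between replicates: Lrp2 over Cubn was -1.17 on the log2(RPKM + 1) scale in replicate 1 and 1.10 in replicate 2, a mean of -0.04 ± 1.60 (SD, n = 2).

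Dab2 (chromosome 15) encodes a clathrin adaptor that binds the tail of megalin and is also made by macrophages and other cells. Its levels were 78.0 RPKM (1229 reads) and 74.7 RPKM (5702 reads), in a locus joined with an unnamed gene identifier. Unlike the receptors it lay above the median shift, with a centred ratio of 0.32, near the median size over all loci (0.29). On read counts the centred ratio was 0.16. Before centring, reads of Dab2 were 1.22-fold higher in replicate 1 (limits 1.15 to 1.30). Dab2 over Cubn was 1.04 on the log2(RPKM + 1) scale in replicate 1 and 4.67 in replicate 2.

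**Figure D1:**
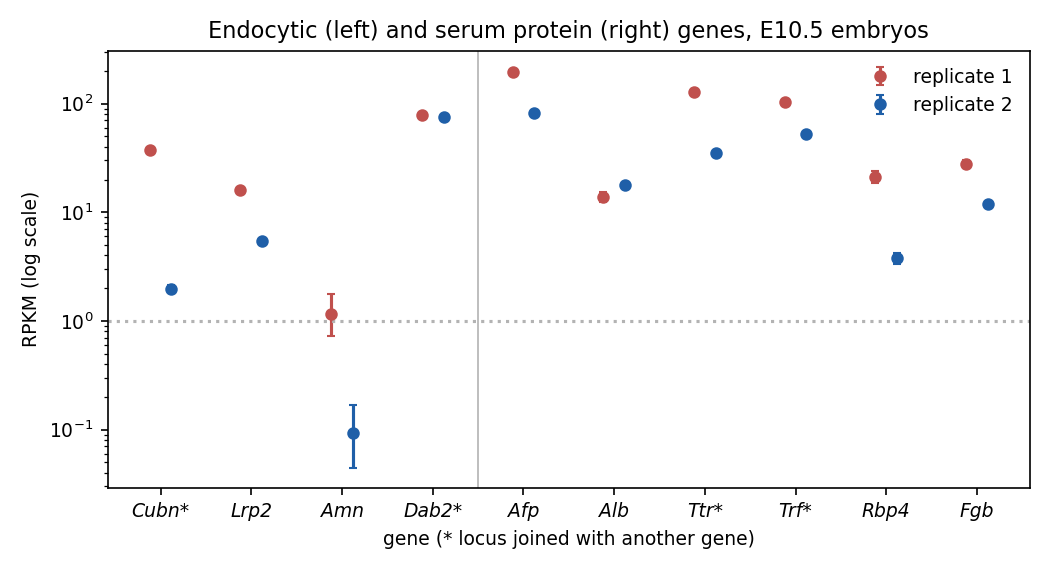
Level of each gene in RPKM (vertical log axis) in replicate 1 and replicate 2, with bars for the 95% Poisson limits on its reads and a dotted line at 1 RPKM; receptors and adaptor stand left of the line and serum proteins right of it. Cubn lies at 37.4 and 1.98 RPKM, whereas Dab2 lies at 78.0 and 74.7 RPKM and Alb at 13.8 and 17.7 RPKM.

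Among the serum proteins, Afp was highest in both replicates, and albumin stood apart from the other 5 in its direction. Afp (chromosome 5), the main serum protein of the fetus, had 196 RPKM from 5054 reads in replicate 1 and 82.0 RPKM from 12040 reads in replicate 2. Alb, its adult counterpart, had 13.8 RPKM from 355 reads and 17.7 RPKM from 2588 reads. Reads of Afp were 2.39-fold higher in replicate 1 (limits 2.31 to 2.47), whereas those of Alb had a ratio of replicate 1 over replicate 2 of 0.780 (limits 0.696 to 0.871). The centred ratios were -0.86 for Afp and 0.72 for Alb. Afp was thus 14.1 times as high as Alb in replicate 1 and 4.62 times in replicate 2, or 3.73 and 2.15 on the log2(RPKM + 1) scale.

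On the log2(RPKM + 1) scale, the retinol carriers were both among the genes furthest below the median shift. Rbp4 (chromosome 19), which carries retinol in blood, had 21.1 RPKM (287 reads) in replicate 1 and 3.76 RPKM (290 reads) in replicate 2, so nearly equal reads came from libraries of very unequal depth. Its reads were 5.62-fold higher in replicate 1 (limits 4.76 to 6.64), and its centred ratio was -1.84. Ttr (chromosome 18), transthyretin, binds thyroid hormone and the Rbp4 protein. It had 129 RPKM (1305 reads) and 34.9 RPKM (2551 reads), with a centred ratio of -1.47. On read counts this ratio was smaller in size, at -1.08, near the -1.12 of Lrp2. Reads of Ttr were 2.91-fold higher in replicate 1 (limits 2.72 to 3.11). Its locus is joined with the desmosomal cadherin Dsg2 and with Gm16090. The joined Ttr locus over Rbp4 was 2.55 and 2.92 on the log2(RPKM + 1) scale, a mean of 2.73 ± 0.26 (SD, n = 2).

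Transferrin and fibrinogen beta had smaller centred ratios. Trf (chromosome 9), the iron carrier of blood, had 104 RPKM (2938 reads) and 52.8 RPKM (6993 reads), with a centred ratio of -0.59. Its locus is joined with Srprb and Gm20425. On read counts the ratio was larger in size, at -0.80, the same as that of Afp. Reads of Trf were 2.39-fold higher in replicate 1 (limits 2.29 to 2.49). The joined Trf locus stood below the receptor gene Tfrc (268 and 184 RPKM) in both replicates, by -1.57 ± 0.30 on the log2(RPKM + 1) scale (SD, n = 2). Fgb (chromosome 3) had 27.9 RPKM (570 reads) and 11.8 RPKM (1370 reads), with a centred ratio of -0.79 and reads 2.36-fold higher in replicate 1 (limits 2.14 to 2.61).

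The other fibrinogen chains were further below the shift than Fgb. Fga had 27.1 RPKM (722 reads) in replicate 1 and 3.90 RPKM (602 reads) in replicate 2, and Fgg had 29.3 RPKM (541 reads) and 5.54 RPKM (587 reads). The 3 chains, which are joined in equal numbers in the protein, lay between 27.1 and 29.3 RPKM in replicate 1. In replicate 2, Fgb was 3.03 times as high as Fga and 2.13 times as high as Fgg. The log2(RPKM + 1) difference of Fgb over Fga was 0.04 and 1.39, and that of Fgb over Fgg was -0.06 and 0.97.

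By mean level the order was Afp (139 ± 80.3 RPKM, SD, n = 2), Ttr, Trf, Dab2, Fgb, Cubn, Alb, Rbp4, Lrp2 and Amn (0.624 ± 0.752 RPKM). Of the 9 neighbouring pairs in this order, 7 were closer than the larger SD of the pair. The steps from Dab2 (76.4 ± 2.31 RPKM) to Fgb (19.9 ± 11.4 RPKM) and from Lrp2 (10.7 ± 7.54 RPKM) to Amn were wider than it. Cubn was 5th of the 10 in replicate 1 and 9th in replicate 2, and Alb was 9th in replicate 1 and 5th in replicate 2. Ttr, Trf, Dab2 and Cubn stand in joined loci, so their values and places in this order are not those of these genes alone.

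**Figure D2:**
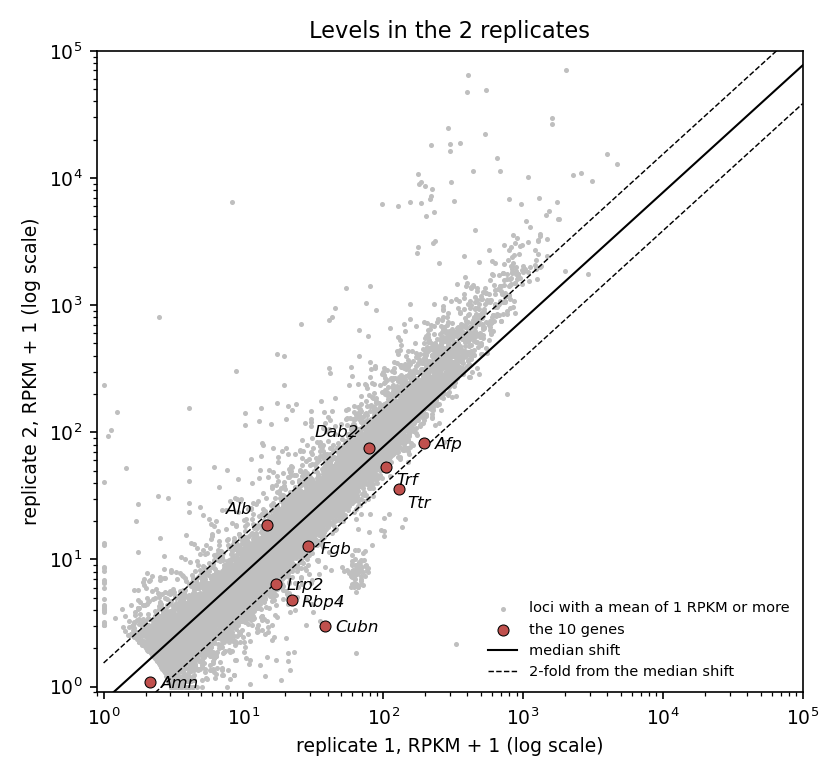
RPKM + 1 of each locus in replicate 1 (horizontal log axis) against replicate 2 (vertical log axis); grey points are the 18335 loci with a mean of 1 RPKM or more, red points the 10 genes, the solid line the median shift and the dashed lines 2-fold either side of it. Cubn, Rbp4, Ttr and Lrp2 lie below the lower dashed line and none of the 10 lies above the upper one.

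Of the 9 genes with a mean of 1 RPKM or more, 4 (Cubn, Rbp4, Ttr and Lrp2) were 2-fold or more lower in replicate 2 after centring, beside 3.15% of all 18335 loci, and none was 2-fold higher, beside 5.69%. On read counts the same 4 were lower (background 6.38%) and none was higher (background 5.99%). The median centred ratio of the 9 was -0.86. Of these 4, Cubn and Ttr lie in joined loci. With joined loci left out 2 of 5 genes (Lrp2 and Rbp4) were 2-fold lower, with no share over all single-gene loci computed.

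The genes nearest to Cubn in both replicates were S100g (34.5 and 2.25 RPKM), which encodes a calcium-binding protein, Fga, and the folate receptor gene Folr1 (19.3 and 1.41 RPKM). Their distances on the log2(RPKM + 1) scale over the 2 replicates were 0.17, 0.85 and 0.97, among 11140 protein-coding single-gene loci. The genes nearest to Lrp2 were Tmem39b (15.6 and 5.27 RPKM, distance 0.046), Ak4 and Slc25a40. Nearest to Afp were Arid1a (163 and 78.1 RPKM, distance 0.27) and Auts2 (169 and 98.6 RPKM), and nearest to Alb were Gdpd1 (14.2 and 17.5 RPKM, distance 0.039), AW551984 and Mydgf. With only 2 libraries, likeness says that levels were similar in each and nothing more.

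Most markers of yolk sac endoderm were also higher in replicate 1. Of the 17 loci of that list, 9 reached 1 RPKM in both replicates, and of the 16 with a mean of 1 RPKM or more, 7 were 2-fold lower in replicate 2, beside 3.15% of all loci, and none was higher. Of the 16, 14 lay below the median shift, and their median centred ratio was -0.95. On read counts 9 were 2-fold lower, beside 6.38% of all loci, and the median was -2.13, against -0.80 for the 9 members. Apob, the structural protein of secreted lipoproteins, had 71.1 and 5.30 RPKM. Apoa4, an apolipoprotein in a locus joined with Gm10680, had 62.6 RPKM (1138 reads) and 0.842 RPKM (108 reads), with a centred ratio of -4.73. S100g, Apoc2 (10.2 and 0.629 RPKM, joined with Apoc4), Tmprss2 (7.02 and 0.882 RPKM) and Slc39a5 (4.05 and 0.436 RPKM) were likewise far higher in replicate 1, while Lgmn (25.5 and 18.6 RPKM) and Cited1 (15.1 and 12.4 RPKM) lay close to the shift, and Muc13 (13.5 and 14.0 RPKM, joined) lay above it, at 0.43. Summed over the list, the level was 269 RPKM in replicate 1 and 64.3 RPKM in replicate 2. The lowest marker was Fxyd2 (0.516 and 0.0567 RPKM), and no locus of the list was without reads in both. The part of these cells in the receptor values was not tested.

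**Figure D3:**
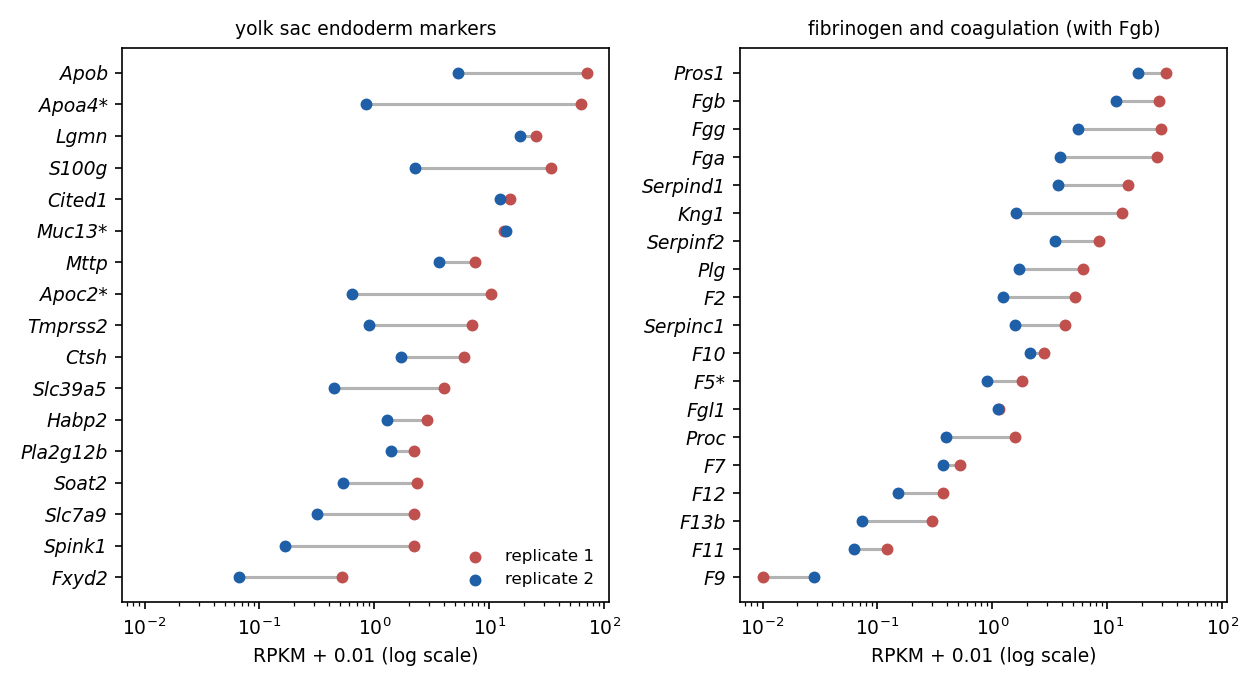
RPKM + 0.01 (horizontal log axis) of each yolk sac endoderm marker (left) and each fibrinogen or coagulation gene (right) in replicate 1 and replicate 2, ordered by mean level; a star marks a joined locus. Apoa4 spans 62.6 to 0.842 RPKM and Fga 27.1 to 3.90 RPKM, while Pros1 (32.2 and 18.4 RPKM) and F10 (2.81 and 2.11 RPKM) lie closer together.

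Coagulation genes showed a like direction. Of 18 loci, 11 reached 1 RPKM in both replicates, and of 12 with a mean of 1 RPKM or more, 6 were 2-fold lower in replicate 2, beside 3.15% of all loci, and none was higher, beside 5.69%. On read counts 7 were 2-fold lower (background 6.38%). Besides Fga and Fgg the 6 were Kng1, the kininogen (13.3 and 1.59 RPKM, with a near-identical copy that may share its reads), the heparin cofactor Serpind1 (15.1 and 3.70 RPKM), prothrombin F2 (5.21 and 1.24 RPKM) and plasminogen Plg (6.13 and 1.71 RPKM). The highest gene of the list, protein S (Pros1), had a centred ratio of -0.39, and F9 was lowest (0 and 0.0181 RPKM). The median centred ratio of the list was -0.86, and on read counts it was -1.20.

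Other serum carriers had a median close to the shift. In the list of the albumin family and serum carriers 9 of 22 loci reached 1 RPKM in both replicates. Of 11 with a mean of 1 RPKM or more, 1 was 2-fold lower in replicate 2, the vitamin D binding protein Gc (2.57 and 0.321 RPKM), beside 3.15% of all loci. The median of the 11 was -0.03. Serpinf1 (38.1 and 41.7 RPKM) and vitronectin Vtn (33.1 and 24.6 RPKM) were highest, and Orm1 had 0 reads in both, which allows up to 0.164 and 0.0255 CPM (counts relative to all counted reads). Of 12 cargo genes of the 2 receptors with a mean of 1 RPKM or more, 3 were 2-fold lower, Folr1, Gc and Plg, beside 3.15% of all loci. Bmp4 (23.1 and 20.7 RPKM) and Shh (19.7 and 10.5 RPKM, joined) were highest of the cargo genes and the B12 carrier Cblif was lowest (0.0541 and 0.0572 RPKM).

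The general machinery of endocytosis lay at the median shift. All 22 loci of endocytic adaptors and carriers reached 1 RPKM in both replicates. So did all 12 loci listed for the LDL receptor family and its chaperone Lrpap1 (Lrp2 not included), and all 14 lysosomal loci. None of these loci was 2-fold lower in replicate 2, beside 3.15% of all loci. At that share, lists this short would hold few such loci or none. The median centred ratios of the lists were, in that order, 0.07, -0.00084 and 0.14. The clathrin chains Clta (201 and 263 RPKM) and Cltc (188 and 214 RPKM) were the highest adaptors and carriers. Of the 22, only Ap2m1 (112 and 173 RPKM) was 2-fold higher in replicate 2 after centring, at 1.01, beside 5.69% of all loci. Lrp1 (109 and 136 RPKM) and Lrp6 (105 and 96.1 RPKM) were the highest receptors, both far above Lrp2, and Lrp1b was the lowest (3.15 and 3.19 RPKM). Lamp1 (137 and 159 RPKM) and Ctsl (115 and 109 RPKM) were the highest lysosomal genes, and Tfeb was the lowest (3.83 and 1.26 RPKM).

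The lists of iron handling and of retinol transport also had medians near the shift, at -0.16 and 0.02. Of 13 iron-handling loci, 10 reached 1 RPKM in both replicates. Of 11 with a mean of 1 RPKM or more, none was 2-fold lower in replicate 2, beside 3.15% of all loci. The ferritin light chain Ftl1 (370 and 608 RPKM, joined) was 2-fold higher, beside 5.69%. On read counts neither Ftl1 nor Ap2m1 was 2-fold higher. By that measure 2 of the 11, Steap3 (7.89 and 2.79 RPKM) and Tfr2 (1.57 and 0.549 RPKM), were 2-fold lower, beside 6.38% of all loci. The ferritin heavy chain Fth1 had 308 and 315 RPKM, and hepcidin, Hamp, was lowest (0 and 0.0449 RPKM). Of 10 retinol transport and storage loci, 5 reached 1 RPKM in both. Of 6 with a mean of 1 RPKM or more, none passed 2-fold, beside 3.15% of all loci lower and 5.69% higher. Rdh10 (33.4 and 24.9 RPKM) was highest and Rbp3 was lowest (0 and 0.0204 RPKM).

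Regulators of endoderm and liver had no locus past 2-fold on the centred log2(RPKM + 1) scale, where the added 1 shrinks the ratios of low genes. Of all loci, 3.15% were 2-fold lower and 5.69% higher on that scale. Of 20 loci, 14 reached 1 RPKM in both replicates, and the median centred ratio of 17 loci was -0.23. The highest loci were those of Cebpb (91.9 and 60.1 RPKM), joined with Ube2v1, Gm20431 and Tmem189, and of Zbtb20 (53.5 and 40.6 RPKM), joined with Gm9968. The reads of joined genes cannot be separated, so these are not levels of the regulators alone. On read counts 2 of the 17 were 2-fold lower, beside 6.38% of all loci. These were Hnf4a (3.26 and 0.886 RPKM) and Foxa3 (1.79 and 0.422 RPKM), named after their values were seen.

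Markers of some other tissues that express these genes were given the same look, and no list of neural tube markers was among them. Nephric duct and tubule markers reached 1 RPKM in both replicates at 8 of 16 loci, with summed levels of 127 and 103 RPKM. None of 8 with a mean of 1 RPKM or more was 2-fold different, beside 3.15% of all loci lower and 5.69% higher. Of the 8, 7 lay below the median shift, and their median centred ratio was -0.24 (-0.37 on read counts). Emx2 (58.9 and 63.2 RPKM) was highest, followed by the locus of Slc5a2 (24.6 and 14.2 RPKM), joined with BC017158 and Mir3103. Emx2 and this joined locus made up most of both sums. Umod was lowest (0 and 0.0121 RPKM). Nephric loci below a mean of 1 RPKM were not among the 8, so nothing is said of their difference. Macrophage markers reached 1 RPKM in both replicates at 10 of 14 loci, with sums of 51.7 and 41.1 RPKM. None of 13 with a mean of 1 RPKM or more was 2-fold different, beside the same shares of all loci. Of the 13, 4 lay below the median shift, and their median centred ratio was 0.20 (0.25 on read counts). Cd68 (13.4 and 8.96 RPKM) and Mrc1 (9.46 and 7.92 RPKM) were highest and Cd14 was lowest (0.325 and 0.267 RPKM). Trophoblast and placental markers reached 1 RPKM in both replicates at 3 of 15 loci, with sums of 21.4 and 11.8 RPKM. Of 5 with a mean of 1 RPKM or more, all 5 lay below the median shift. Their median centred ratio was -0.28 (-0.54 on read counts). None of the 5 was 2-fold lower, beside 3.15% of all loci, and on read counts 1 was, beside 6.38%. Hand1 (7.06 and 3.37 RPKM) and Prl2c2 (5.2 and 3.07 RPKM) were highest, and no read of Tpbpa or Psg21 was counted in either replicate. Adult hepatocyte markers reached 1 RPKM in both replicates at 1 of 16 loci, Ass1 (4.09 and 1.01 RPKM), with sums of 13.8 and 4.08 RPKM. Among the 3 with a mean of 1 RPKM or more, 2 were 2-fold lower in replicate 2, beside 3.15% of all loci, and on read counts all 3 were, beside 6.38%. Cyp7a1 was lowest (0 and 0.0327 RPKM). The part of these tissues in the values of the 10 genes was not tested.

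**Figure D4:**
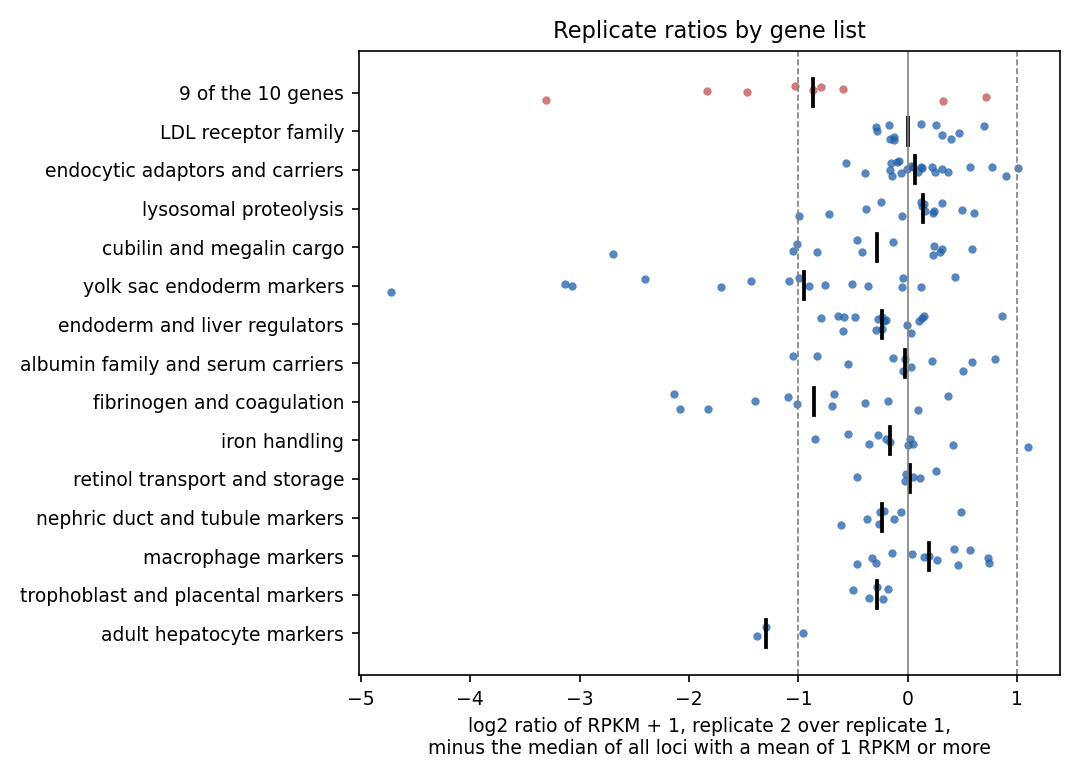
Centred log2 ratio of RPKM + 1, replicate 2 over replicate 1 (horizontal axis), for every locus with a mean of 1 RPKM or more in each gene list; black bars are medians and dashed lines mark 2-fold. The median is -0.86 for the 9 of the 10 genes at that level (Amn left out), -0.95 for yolk sac endoderm markers and -0.86 for coagulation genes, and 0.07 for endocytic adaptors and carriers.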

How the data were processed

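RNA was extracted with TRI reagent from whole embryos and sequenced from Illumina libraries, per the labels' protocols. TopHat and the build mm9 are named in the submitters' processing notes. The counter, annotation version and strand setting were not given in the sources used here. Reads of overlapping antisense genes therefore cannot be separated. The authors deposited RPKM and whole-number read counts per locus, per the file headers. Rows with the same set of identifiers (34676 rows) were summed to 34624 loci, of which 2473 joined several identifiers. Names were matched by identifier for 32642 of 37681 identifiers.

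Each value was compared between replicates as log2(RPKM + 1), centred on loci with a mean of 1 RPKM or more, and as read counts (with 0.5 added) over the library sizes implied by RPKM, whose ratio was 5.68. This ratio held within 1% for 100% of single-transcript loci over 200 reads but for 23.2% of multi-transcript loci, and for the others the deposited RPKM rest on a length that differed between libraries. Calls were 2-fold. No test was run between 2 replicates of 1 group. Limits are 95% exact Poisson or binomial and cover counting error only.

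Members and 14 related lists (215 genes, 214 loci other than the members, 1 gene, Rhox5, not analysed here) were chosen with earlier results of these data known. Named genes were the members, the 2 highest and the lowest gene of each list, pair genes, up to 6 genes of a list past 2-fold, and the 3 nearest loci to Afp, Cubn, Lrp2 and Alb. Lgmn, Cited1, Muc13, F10, Steap3 and Tfr2 are named outside this rule after their values were seen, and some genes that the rule names are not reported here. The ratio step was tested on simulated counts. Python 3.11 with pandas 2.3.3 and scipy 1.17.1 was used.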

Additional observations from a re-analysis of the deposited data

How the results depend on the processing

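The 4 genes 2-fold lower in replicate 2 were counted as 4 of 9 with pseudocounts of 0.1 and 0.01, in CPM, on read counts, with the highest row of a locus and with each other centring, including one on protein-coding loci chosen after seeing the data; without centring the count was 6, and without joined loci 2 of 5. No member was 2-fold higher under any of these. A share over all loci was computed only for the main setting (3.15% lower, 5.69% higher) and on read counts (6.38% and 5.99%). The other counts of members therefore have no share beside them. Without centring, the median of the loci with a mean of 1 RPKM or more was itself -0.38, so that count includes this shift. Of the members, 7 reached 5 RPKM in both replicates. The 9 members at 1 RPKM in both replicates became 5 of 6 without joined loci. Over single replicates the count was 9 to 10. Over the related lists, 132 of 214 loci reached 1 RPKM in both and 86 reached 5 RPKM. Of the 154 with a mean of 1 RPKM or more, 17 were 2-fold lower, beside 3.15% of all loci, and 2 higher, beside 5.69%. In CPM these counts were 15 and 0, with no share over all loci computed. The mean of Lrp2 over Cubn (-0.04) changed sign with pseudocounts of 0.1 (0.091) and 0.01 (0.11) and ranged from -1.17 to 1.10 over single replicates, and that of Fgb over Fgg from -0.065 to 0.97; the cause was not tested. Of 96 other settings of single member ratios, 93 moved by less than the SD over all loci and 3, all of Amn, moved further, to -2.28, -3.08 and -3.15. Low genes of replicate 1 are limited by its depth. No paired analysis was possible because there is only 1 group.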

Other observations

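Among the loci with a mean of 10 RPKM or more, 173 of 11048 (1.57%) were 2-fold or more lower in replicate 2 after centring. Genes named here were chosen after their values were seen. The lowest centred ratio was that of the joined locus of Tsix and Xist, the RNA of the inactive X chromosome, with 330 RPKM (42407 reads) in replicate 1 and 1.15 RPKM (922 reads) in replicate 2. Of the 20 lowest, Cubn was 5th, and Apoa4, Apob and S100g of the yolk sac endoderm list were 2nd, 8th and 11th. In all, 14 of the 20 were not annotated as protein-coding, and apart from the Tsix and Xist locus these 13 had 29 to 108 reads (19.8 to 73.6 RPKM) in replicate 1 and 5 to 53 reads (0.600 to 6.36 RPKM) in replicate 2. Trap1a was 6th, with 22.05 and 0.868 RPKM. Whether the replicates held embryos of the same sex is not given in the labels, and its part in the values of the 10 genes was not tested.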
